A study of Mus musculus with 4 samples.

Results

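The transcripts of 10 antioxidant genes were examined in mouse embryonic fibroblasts with and without Pf1, the PHD finger protein encoded by Phf12 and found in Sin3 and histone deacetylase corepressor complexes. The genes were chosen by name from the glutathione and thioredoxin branches of the Nrf2 response: Gclc, Gclm, Gsr and Slc7a11 for glutathione, Txnrd1, Txn1, Srxn1 and Prdx1 for thioredoxin, and Nqo1 and Hmox1 for quinones and haem. The array carried 24 probe sets annotated to them, of which 19 named 1 gene and measured 9 of the 10 genes, among 18193 genes measured in all. The 5 probe sets of Prdx1 also named Gm21399, a pseudogene, and are given separately.

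The cells were primary fibroblasts grown from minced torsos of embryos of embryonic day 13.5 or 14.5, with the head and red organs removed. Knockout lines 2 and 4 were Pf1 -/- and wild-type lines 5 and 6 were Pf+/+, all 4 with the prefix 7706, at passage 2 to 3, with 1 array each. All lines grew in 6% oxygen and 5% CO2 in medium with serum and β-mercaptoethanol, a thiol reducing agent. The labels describe no allele and assign neither passage nor embryonic day to a line. Whether each line is a different embryo is not stated, and p-values then cover only the variation among these 4 cultures.

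The deposited values are on a log2 scale and centred so that the median of each probe set over the 4 arrays is 0. They give differences between lines and hold no level, so genes cannot be ordered by abundance. Differences below are knockout minus wild type on the log2 scale, with the standard error (SE) of the limma fit for n = 2 lines per genotype, and a gene was called at a Benjamini-Hochberg adjusted p under 0.05 over all genes. With 2 lines against 2, an exact permutation test of a single gene cannot give a two-sided p below 0.333, so calls rest on the spread that limma pools over genes.

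Across all genes, limma called 2212 of 18193 (12.2%), with 947 higher (5.21%) and 1265 lower. For Phf12, probe set 1434922_at fell (-0.86 ± 0.109 SE, limma adjusted p = 0.0213) and 1453579_at was not called (0.012), and the labels do not place either relative to the deletion. Since values are centred, the presence of fibroblast markers could not be checked as a level. Of 11 fibroblast markers 5 fell (median difference -0.52), of 7 smooth muscle markers 6 rose (median 0.95), of 8 epithelial markers 3 rose and 1 fell (median 0.96), of 5 endothelial markers 1 fell, and of 7 erythroid and 14 macrophage markers 0 were called by limma, with 0 of each at an unadjusted p under 0.05. In macrophage markers the wild-type lines lay far apart (medians 0.81 and -0.81 in lines 5 and 6, against their mean), so absent calls do not show equal content. The part of these marker differences in the results below was not tested. In such cultures fewer cells of a type and less RNA per cell cannot be told apart.

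Nrf2, encoded by Nfe2l2, is a transcription factor that Keap1 holds for degradation in unstressed cells. When reactive electrophiles or oxidants modify Keap1, Nrf2 accumulates, pairs with small Maf proteins and binds the antioxidant response element of its target genes. These supply glutathione, the main soluble thiol of the cell, and the thioredoxin and peroxiredoxin enzymes that reduce protein thiols and peroxides. In cultured fibroblasts the same genes respond to oxidants and to the supply of cystine in the medium.

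The promoter windows of the members are shown because Nrf2 acts through a short element that lies near the start sites of some targets. RefSeq windows (GRCm38.p6) of 250 bases before to 50 after a start site were held for 7 of the 10 genes, in 9 windows, 3 of them of Txnrd1, and none for Gclc, Gsr and Hmox1. The element core TGACNNNGC was searched on both strands, and so was the form TGAGNNNGC, which was added after the windows had been seen. Both share letters with the AP-1 element TGANTCA. The core TGACNNNGC was found in windows of 4 of the 7 genes (Gclm, Txnrd1, Prdx1 and Srxn1), against 14.0% of all 27025 genes with a window and 12.4% of the 32851 windows, and TGAGNNNGC in those of 3 of the 7 (Srxn1, Prdx1 and Slc7a11), against 19.8% of genes and 17.6% of windows. The windows of Nqo1 and Txn1 held neither form. A match is a description of letters only, and none says only that these letters are absent from the window. The 250 bases before the start site of the genes with the TGACNNNGC core follow, 5′ to 3′ on the gene's strand (+ for all 4), with matches to either form in capitals. Gclm lies at chr3:122245307-122245556, the middle Txnrd1 window, the one with a match, at chr10:82858956-82859205, Prdx1 at chr4:116685349-116685598 and Srxn1 at chr2:152105274-152105523.
Gclm: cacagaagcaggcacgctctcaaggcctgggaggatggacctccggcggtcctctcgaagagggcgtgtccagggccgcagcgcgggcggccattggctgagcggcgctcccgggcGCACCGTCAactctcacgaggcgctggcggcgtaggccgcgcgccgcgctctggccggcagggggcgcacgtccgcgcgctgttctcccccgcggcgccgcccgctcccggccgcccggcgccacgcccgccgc
Txnrd1: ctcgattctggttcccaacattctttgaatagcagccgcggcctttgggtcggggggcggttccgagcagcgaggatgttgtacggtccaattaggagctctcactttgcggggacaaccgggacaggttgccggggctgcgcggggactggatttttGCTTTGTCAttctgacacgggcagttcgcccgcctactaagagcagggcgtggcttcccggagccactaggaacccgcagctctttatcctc
Prdx1: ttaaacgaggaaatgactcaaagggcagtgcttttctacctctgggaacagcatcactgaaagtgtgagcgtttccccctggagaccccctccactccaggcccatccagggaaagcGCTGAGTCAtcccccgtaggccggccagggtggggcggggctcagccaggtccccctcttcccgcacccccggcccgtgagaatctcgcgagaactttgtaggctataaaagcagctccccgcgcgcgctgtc
Srxn1: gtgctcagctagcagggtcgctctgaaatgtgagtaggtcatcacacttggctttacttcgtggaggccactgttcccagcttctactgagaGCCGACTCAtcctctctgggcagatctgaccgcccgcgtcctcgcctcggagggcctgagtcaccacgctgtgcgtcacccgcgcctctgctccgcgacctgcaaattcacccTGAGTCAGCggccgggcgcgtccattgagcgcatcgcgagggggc

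The Gclm match (TGACGGTGC) read on the opposite strand and began 134 bases before the start site. That of Txnrd1 (TGACAAAGC) lay 92 bases and that of Prdx1 (TGACTCAGC) 133 bases before it, both also on the opposite strand. In Srxn1, TGAGTCAGC lay 45 bases before the start site on the gene's strand and TGAGTCGGC 158 bases before it on the other, while its TGACNNNGC match began 28 bases past the start site, outside the printed run, as did the TGAGNNNGC match of Prdx1, at 15 bases. Of the printed genes, the window of Gclm held 79.7% G and C, that of Srxn1 64.3%, the matched one of Txnrd1 61.3% and that of Prdx1 60.7%, against a median of 52.7% over all windows. The window of Txn1, with neither form, held 67.3%. As the following values show, genes with a match included called genes (Gclm and Txnrd1) and a gene with one of the smallest differences of the list (Srxn1).

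Of the 9 members measured by probe sets of their own, 2 rose (Txnrd1 and Gclm, 5.21% of all genes being called higher), 0 fell and 7 did not pass. At an unadjusted p under 0.05, 5 of 9 were higher and 0 lower in the limma fit, against 14.3% of all genes higher. Both knockout lines lay above both wild-type lines in 6 of 9 members, against 28.7% of all genes, and below both in 1 of 9, against 29.5%. The median difference of the 9 was 0.33, beside -0.0027 over all genes. Against the mean of the wild-type lines, the members' median was 0.26 in knockout line 2 and 0.40 in knockout line 4. Both are the values of Gsr, the middle gene, and do not rank the lines. Line 2 was the higher knockout line for Gclc, Gclm, Txnrd1, Txn1, Srxn1, Nqo1 and Hmox1, and line 4 for Gsr and Slc7a11. These counts and medians describe a list whose members were chosen with results of these arrays known.

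**Figure D1:**
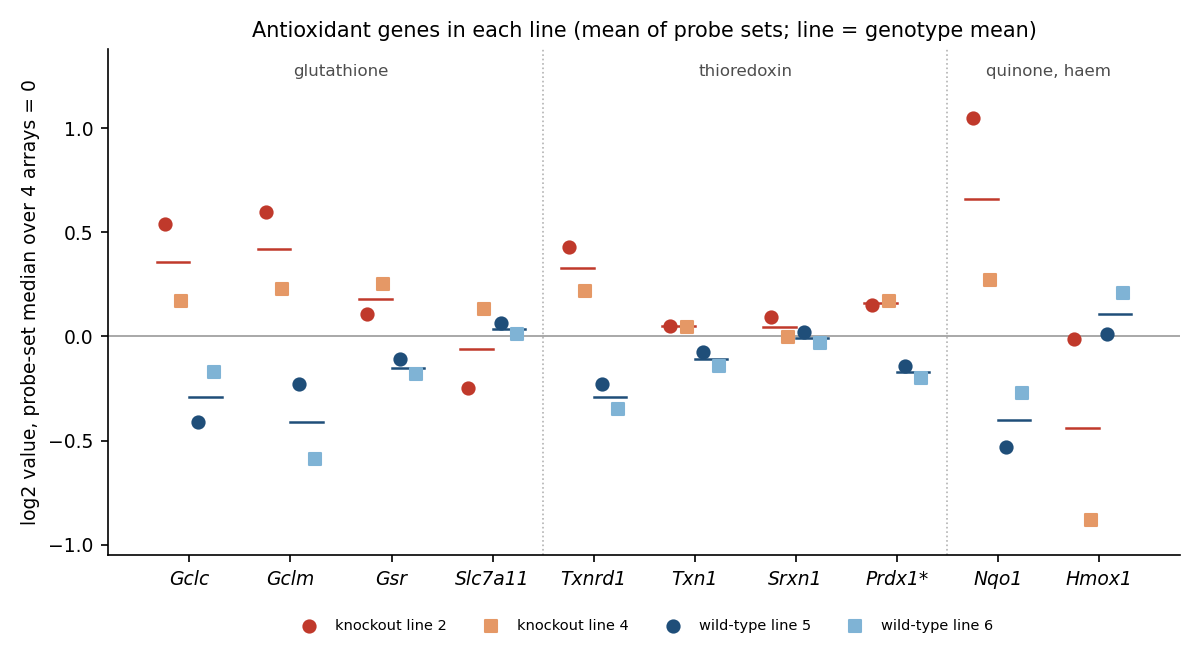
Log2 value of each gene (vertical axis, mean of its probe sets, each centred on its median over the 4 arrays) in knockout lines 2 and 4 (red and orange) and wild-type lines 5 and 6 (dark and light blue), with short bars at the mean of each genotype; the asterisk marks Prdx1, whose probe sets also name Gm21399. Both knockout lines stand above both wild-type lines for Gclc, Gclm, Gsr, Txnrd1, Txn1, Prdx1 and Nqo1, and line 4 alone is low for Hmox1, at -0.88.

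Glutathione is made from glutamate and cysteine by glutamate-cysteine ligase, whose catalytic subunit is Gclc and whose modifier subunit is Gclm. Gclm stood at 0.60 in knockout line 2 and 0.23 in knockout line 4, against -0.23 in wild-type line 5 and -0.59 in wild-type line 6. The genotypes did not overlap, although the lines of each genotype lay 0.36 apart. Gclm rose 1.77-fold (0.83 ± 0.179 SE, limma adjusted p = 0.0478), close to the threshold. Its probe set 1418627_at was called by itself (0.81 ± 0.152, limma adjusted p = 0.0412) and 1439050_at, with a nearly equal difference, was not (0.85 ± 0.218, limma adjusted p = 0.0806). Gclm has 2 probe sets, so their median equals their mean, and array weights were equal within each genotype. Neither alternative could move its difference, and with the median its adjusted p moved only through the other genes. The call of the gene was lost with array weights (0.83, limma adjusted p = 0.0511), after quantile normalisation (0.91, 0.054) and with the median of probe sets (0.83, 0.0536). It was also lost without knockout line 2 (0.65, limma adjusted p = 0.203), knockout line 4 (1.01, 0.0857), wild-type line 5 (1.01, 0.111) or wild-type line 6 (0.65, 0.139).

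Gclc, the catalytic partner, stood at 0.54 in knockout line 2 and 0.17 in knockout line 4, against -0.41 in wild-type line 5 and -0.17 in wild-type line 6. Knockout line 2 was the highest, as for Gclm, and the genotypes did not overlap. The difference of 0.65 ± 0.16 SE missed the threshold (limma adjusted p = 0.0632), with a 95% interval of 0.24 to 1.06. Both of its probe sets gave a positive difference (0.77 for 1424296_at and 0.53 for 1455959_s_at). After quantile normalisation, 1424296_at passed (limma adjusted p = 0.0466). The gene itself passed in no alternative with all 4 lines (limma adjusted p from 0.053 to 0.0729). Its difference lay between 0.46 and 0.83 with 1 line left out.

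Gsr, the reductase that returns oxidised glutathione to its thiol form with NADPH, stood at 0.11 in knockout line 2 and 0.25 in knockout line 4, against -0.11 in wild-type line 5 and -0.18 in wild-type line 6. Here knockout line 4 was the higher one. The difference was 0.33 ± 0.0928 SE (limma adjusted p = 0.0845, 95% interval 0.091 to 0.57), and the 2 probe sets gave 0.34 and 0.32. Slc7a11, the light chain of the cystine importer that feeds glutathione synthesis, stood at -0.25 in knockout line 2 and 0.13 in knockout line 4, against 0.063 in wild-type line 5 and 0.012 in wild-type line 6. The knockout lines lay on either side of the wild-type lines. Its difference was -0.10 ± 0.143 SE (limma adjusted p = 0.717), with an interval of -0.46 to 0.27, and turned to 0.088 without knockout line 2. Thus of the 4 glutathione members 1 rose and 3 did not pass, with a median difference of 0.49. Over all genes, 5.21% were called higher and the median difference was -0.0027.

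Txnrd1 is the cytosolic thioredoxin reductase, a selenoprotein that passes electrons from NADPH to thioredoxin. It stood at 0.43 in knockout line 2 and 0.22 in knockout line 4, against -0.23 in wild-type line 5 and -0.35 in wild-type line 6, without overlap. Txnrd1 rose 1.53-fold (0.62 ± 0.109 SE, limma adjusted p = 0.0324), the smallest p of the list. The call was lost without knockout line 2 (0.51, limma adjusted p = 0.174), knockout line 4 (0.72, 0.0843), wild-type line 5 (0.68, 0.113) or wild-type line 6 (0.56, 0.101).

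The 3 probe sets of Txnrd1 gave unequal values. For 1421529_a_at the lines stood at 0.66 and 0.41 (knockout lines 2 and 4) and -0.49 and -0.41 (wild-type lines 5 and 6), a rise of 1.98-fold (0.99 ± 0.122 SE, limma adjusted p = 0.0205). For 1424486_a_at they stood at 0.26, 0.31, -0.26 and -0.36 in the same order, a rise of 1.52-fold (0.60 ± 0.096, limma adjusted p = 0.0304). The suffix _a_at marks probes shared by transcript variants of the gene. For 1424487_x_at they stood at 0.37, -0.06, 0.06 and -0.28, so that the genotypes overlapped (0.26 ± 0.191, limma adjusted p = 0.48). The suffix _x_at marks probes that can match other sequences. The gene mean thus lies below the difference of its largest probe set, and whether the probe sets differ from each other was not tested.

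Txn1, the cytosolic thioredoxin that Txnrd1 reduces, stood at 0.051 in knockout line 2 and 0.045 in knockout line 4, against -0.076 in wild-type line 5 and -0.14 in wild-type line 6. The genotypes did not overlap, but the difference was small (0.16 ± 0.0813 SE, limma adjusted p = 0.28, 95% interval -0.051 to 0.37). Srxn1, sulfiredoxin, which repairs overoxidised peroxiredoxins, stood at 0.093 in knockout line 2 and -0.0019 in knockout line 4, against 0.021 in wild-type line 5 and -0.031 in wild-type line 6. The lines overlapped and the difference was 0.051 ± 0.0855 SE (limma adjusted p = 0.765, interval -0.17 to 0.27). Omitting 1 line moved it to between 0.0032 (knockout line 2 omitted) and 0.10 (knockout line 4 omitted). Its 4 probe sets ran from -0.19 (1419942_at) to 0.24 (1426875_s_at), none called, and without the probe sets marked _x_at, _s_at or _a_at the gene's difference turned to -0.014.

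Prdx1, a peroxiredoxin that reduces hydrogen peroxide with thioredoxin, was measured here only by probe sets that also name the pseudogene Gm21399, so its own transcript cannot be separated. All 5 were higher in both knockout lines, with differences from 0.22 (1437014_x_at) to 0.40 (1416000_a_at). For 1416000_a_at the lines stood at 0.19 and 0.18 (knockout lines 2 and 4) and -0.18 and -0.25 (wild-type lines 5 and 6). In each of the 5, lines of 1 genotype lay at most 0.10 apart after rounding. None passed over all probe sets (limma adjusted p from 0.0644 to 0.215). The mean of the 5, added to the fit after the data had been seen, gave 0.33 ± 0.0806 SE (limma adjusted p = 0.0628), so the count of called members was still 2.

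**Figure D2:**
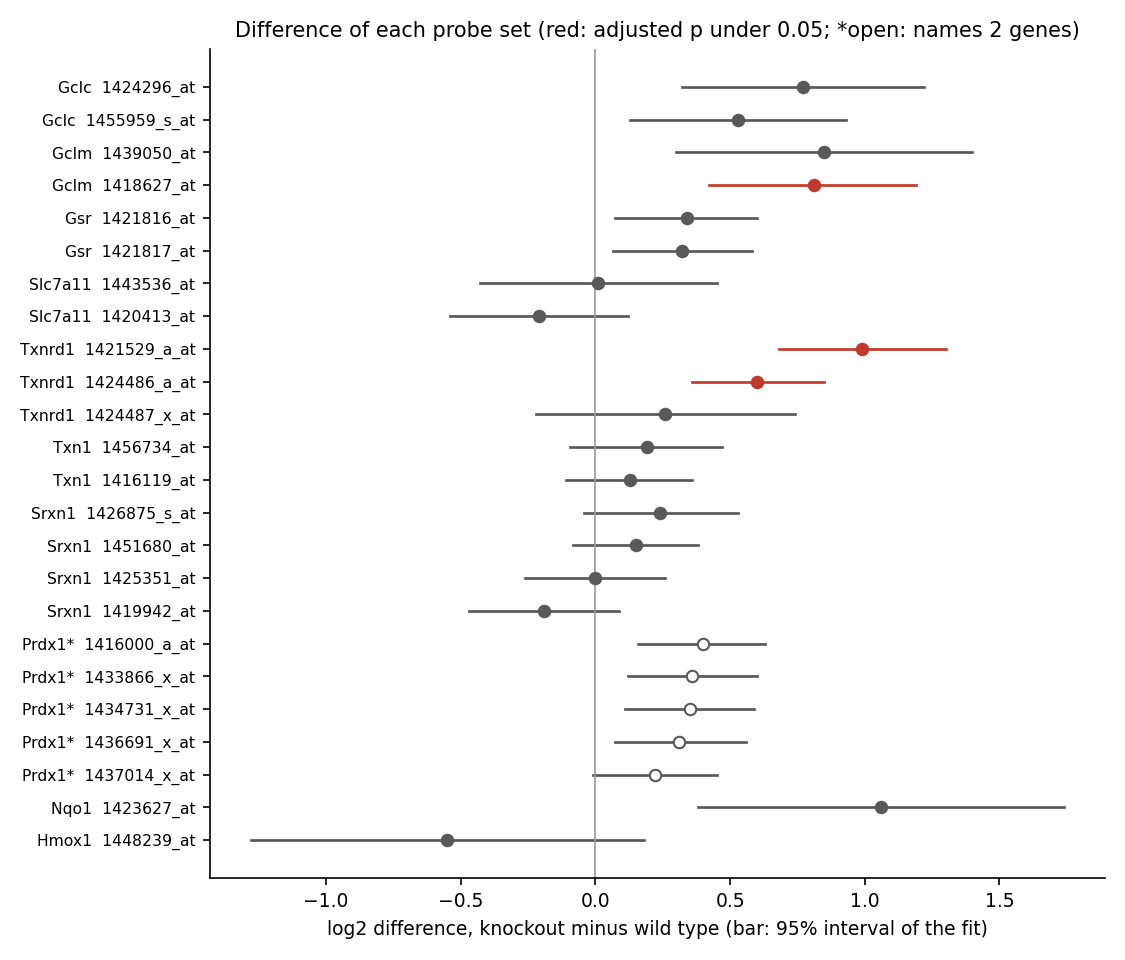
Log2 difference of each of the 24 probe sets, knockout minus wild type (horizontal axis), with the 95% interval of the limma fit as a bar; red marks an adjusted p under 0.05 over all probe sets and open symbols mark probe sets that name 2 genes. The red ones are 1418627_at of Gclm and 1421529_a_at and 1424486_a_at of Txnrd1, and the 4 probe sets of Srxn1 lie on both sides of 0.

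By probe set, limma called 3 of the 19 that name 1 gene, all higher. Of all 45037 probe sets, 1767 were called higher, and 8.32% in either direction. Both knockout lines lay above both wild-type lines in 13 of the 19, against 27.8% of all probe sets. Probe sets of 1 gene share its transcript and are not replicates.

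Nqo1, the quinone reductase often used as a readout of Nrf2, had the largest difference of the 10 genes and a single probe set. It stood at 1.05 in knockout line 2 and 0.27 in knockout line 4, against -0.53 in wild-type line 5 and -0.27 in wild-type line 6. The genotypes did not overlap, but the knockout lines lay 0.78 apart. The difference of 1.06 ± 0.269 SE (2.09-fold) missed the threshold (limma adjusted p = 0.0675, 95% interval 0.37 to 1.75). It was 0.67 without knockout line 2 (limma adjusted p = 0.157) and 1.45 without knockout line 4, where it passed (limma adjusted p = 0.0412).

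Hmox1, the inducible haem oxygenase, was the member with the lowest difference. It stood at -0.01 in knockout line 2 and -0.88 in knockout line 4, against 0.01 in wild-type line 5 and 0.21 in wild-type line 6. Only knockout line 4 was clearly low, and line 2 lay just below wild-type line 5. The difference of -0.55 ± 0.29 SE was not called (limma adjusted p = 0.289, interval -1.30 to 0.19) and was -0.98 without knockout line 2 and -0.12 without knockout line 4. Macrophages, which can carry much Hmox1, had marker medians of 0.015, 0.76, 0.81 and -0.81 in lines 2, 4, 5 and 6, taken against the mean of the wild-type lines (14 of 14 markers measured). The part of these markers in the Hmox1 values was not tested.

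**Figure D3:**
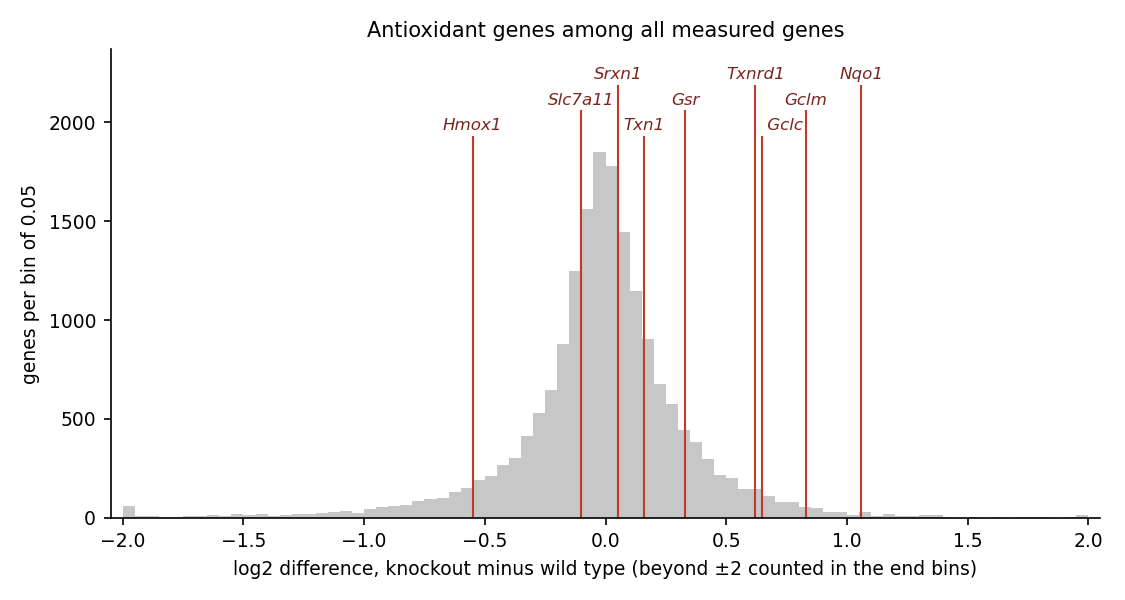
Number of genes per 0.05 of log2 difference, knockout minus wild type (grey bars, 18193 genes, values beyond 2 in either direction in the end bins), with a red line at each of the 9 members with probe sets of their own. Nqo1, Gclm, Gclc and Txnrd1 lie in the right flank between 0.62 and 1.06, and Slc7a11 and Srxn1 lie in the bulk of genes near 0.

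Ranked from the largest increase among all 18193 genes, Nqo1 stood at place 135, Gclm at 299, Gclc at 603, Txnrd1 at 691, Gsr at 2150, Txn1 at 4440, Srxn1 at 7144, Slc7a11 at 12350 and Hmox1 at 17062. The members did not form a block: the subunits of glutamate-cysteine ligase, Txnrd1 and Nqo1 lay together at the high end, and the cystine importer, sulfiredoxin and haem oxygenase lay elsewhere. Knockout lines 2 and 4 differed from the mean of the wild-type lines by 1.45 and 0.67 for Nqo1, 1.01 and 0.65 for Gclm, 0.83 and 0.46 for Gclc and 0.72 and 0.51 for Txnrd1, so line 2 was the higher knockout line in each of these. For Gsr they were 0.26 and 0.40, with line 4 higher.

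The regulators of the pathway were examined next, in 11 genes, of which 1 rose, 1 fell and 9 did not pass. Of all genes, 12.2% were called in either direction and 5.21% higher, so this count does not set the regulators apart. Keap1, the adaptor that presents Nrf2 for degradation, stood at -0.25 in knockout line 2 and -0.27 in knockout line 4, against 0.27 in wild-type line 5 and 0.24 in wild-type line 6. Lines of 1 genotype lay almost on each other. Keap1 fell 1.43-fold (-0.52 ± 0.079 SE, limma adjusted p = 0.0252), and its difference lay between -0.53 and -0.51 with any 1 line left out. Mafk, a small Maf partner of Nrf2, rose 1.42-fold (0.51 ± 0.11, limma adjusted p = 0.0478), at 0.40 in knockout line 2 and 0.17 in knockout line 4, against -0.17 in wild-type line 5 and -0.27 in wild-type line 6. Its call was lost in 3 of 6 alternatives with all 4 lines (limma adjusted p up to 0.0553). Mafk has 1 probe set, so the median of probe sets and the omission of marked probe sets could not move its difference. With 1 line left out, its difference lay between 0.40 and 0.62. Nfe2l2 itself stood at -0.057 in knockout line 2 and -0.0061 in knockout line 4, against 0.10 in wild-type line 5 and 0.12 in wild-type line 6, and was not called (-0.14 ± 0.0803, limma adjusted p = 0.325). Cul3, the ligase scaffold that Keap1 binds, was at 0.34 (limma adjusted p = 0.0635).

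Other known Nrf2 targets were called in both directions. Of 24 measured, 1 rose, 2 fell and 21 did not pass, with a median difference of -0.033. This is near the share of all genes, of which 12.2% were called in either direction and 5.21% higher. The efflux pump Abcc4 rose 1.49-fold (0.57 ± 0.115 SE, limma adjusted p = 0.0413), while Ugdh, which makes the sugar donor for glucuronidation, fell 1.55-fold (-0.63 ± 0.0843, limma adjusted p = 0.0197) and the glutathione transferase Gstm2 fell 1.66-fold (-0.73 ± 0.136, limma adjusted p = 0.0352). Transferases of the Gstm family are similar in sequence, and a probe set can take signal from a neighbour. The Abcc4 call was lost after quantile normalisation (0.62, limma adjusted p = 0.0563). That the listed members and these targets differ as lists was not tested.

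Among 16 other glutathione genes 0 rose, 1 fell and 15 did not pass: Gpx7, a peroxidase of the endoplasmic reticulum, fell 1.42-fold (-0.51 ± 0.0824 SE, limma adjusted p = 0.0274). Among 13 other thioredoxin and peroxiredoxin genes 1 rose, 1 fell and 11 did not pass. Mitochondrial thioredoxin, Txn2, rose 1.46-fold (0.55 ± 0.0976, limma adjusted p = 0.0326), at 0.33 in knockout line 2 and 0.21 in knockout line 4, against -0.35 in wild-type line 5 and -0.21 in wild-type line 6. Txnrd3, the thioredoxin and glutathione reductase known from testis, fell 1.57-fold (-0.65 ± 0.102, limma adjusted p = 0.0266), opposite in sign to its cytosolic relative Txnrd1. Of 5 genes for superoxide dismutases, their copper chaperone and catalase, extracellular Sod3 fell 1.56-fold (-0.64 ± 0.14, limma adjusted p = 0.048), a call lost with the median of probe sets (limma adjusted p = 0.053), and 4 did not pass. Sod3 has 2 probe sets, whose median equals their mean, so its difference stayed at -0.64 and the adjusted p moved only through the other genes. Over these 5 lists, 9 of 69 genes were called (3 higher, 6 lower), near the 12.2% of all genes, and their median difference was 0.015. With 1 line left out, few genes of any kind were called, so such fits say little about these lists. G6pdx, Ftl1, Ggt1, Prdx5 and Prdx6, also listed, had no probe set naming them alone in the annotation used.

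**Figure D4:**
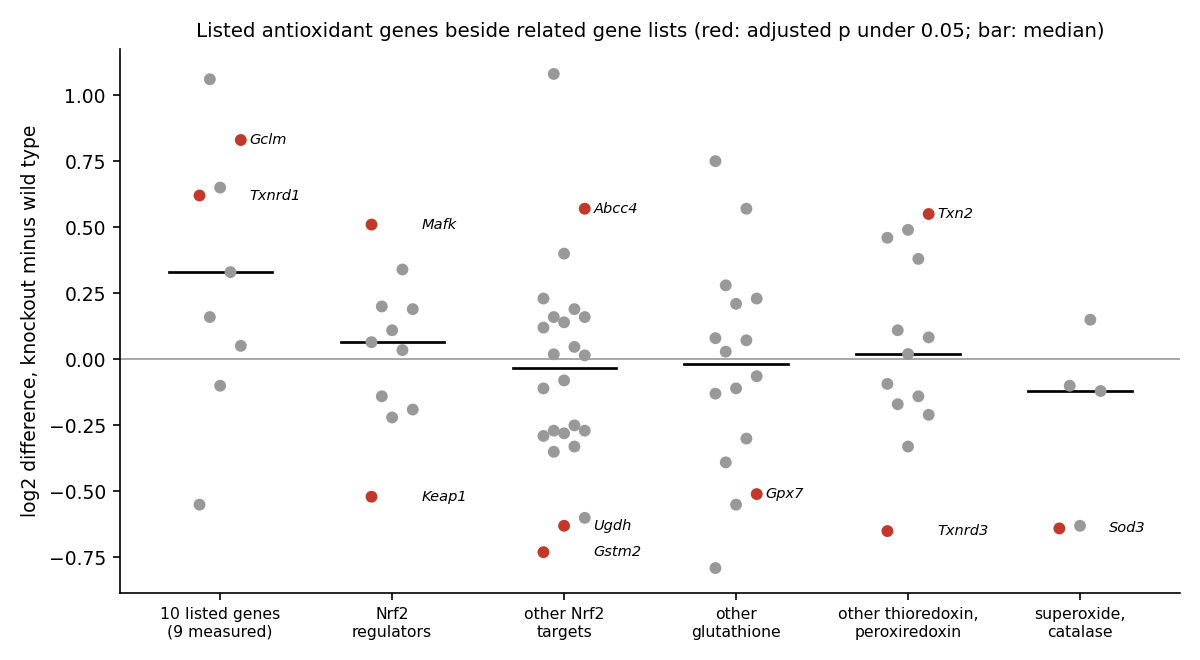
Log2 difference, knockout minus wild type (vertical axis), of each gene in the list of 10 (9 with probe sets of their own) and in 5 related lists, with a black bar at the median and genes with an adjusted p under 0.05 in red and named. The median is 0.33 for the listed genes and lies between -0.12 and 0.065 for the related lists, whose called genes fall on both sides of 0.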

How the data were processed

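Total RNA of each line was labelled with biotin and hybridised to 1 Affymetrix array. The array is given as 430A 2.0 in the series text, but the table's 45101 probe sets were those of the larger array of that family, whose annotation was used. The authors made the log2 values with Affymetrix Expression Console and RMA, per the submitters' processing notes. RMA sets the log base, and versions of these tools are not given in the sources used here. Over the 4 arrays the deposited median was 0 within 1e-06 for 100% of probe sets, a centring the labels do not describe. It removes levels and leaves differences between lines. Signal over background was not analysed here, and the number of arrays limits precision.

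Of 45037 probe sets that were not controls, 34945 named 1 gene, 932 several and 9160 none. RefSeq (GRCm38.p6) matched 34741 of the first kind and changed 0 symbols. Gene values are means of probe sets naming 1 gene. The genotypes were compared with limma 3.58.1 (lmFit, eBayes; R 4.3.3) over all genes, and over all probe sets, with 2 residual and 3.04 (genes) or 3.22 (probe sets) prior degrees of freedom. The fit was tested on simulated data. The members and lists were chosen with earlier results of these data known. The rule for named genes took all members, Phf12 and each called gene of the related lists. Nfe2l2, Cul3 and the uncalled genes named in the closing observations were named outside it. Alternatives were quantile normalisation, centring of each array, array weights, a robust prior, the median of probe sets, omission of probe sets marked _x_at, _s_at or _a_at, and omission of each line.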

Additional observations from a re-analysis of the deposited data

How the results depend on the processing

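The count of called members was 1 with array weights, with quantile normalisation and with the median of probe sets, against 2 in the reported fit and in the other alternatives with all 4 lines, and 0 to 1 with 1 line left out. At an unadjusted p under 0.05 it was 5, all higher (14.3% of all genes). For the members' probe sets the count of 3 became 0 with any 1 line left out and 9 of 19, all higher, at an unadjusted p under 0.05 (13.2% of all probe sets). For the related lists it went from 9 to 0 with any 1 line left out and to 25 of 69 at an unadjusted p under 0.05, in either direction (29.5% of all genes). Over all genes, 0 to 321 were called with 1 line left out (1 residual degree of freedom), with 3296 to 5418 at an unadjusted p under 0.05. Calls were thus mostly lost for genes in general when 1 line was left out, and their loss marks no gene of the list. The members' median difference stayed between 0.26 and 0.40 in all alternatives. Over the 9 members this median was the difference of Gsr each time, so its range describes that gene and not the list. Array weights, equal within each genotype (1.31 for knockout and 0.762 for wild-type lines), and a robust prior could not move any difference. The differences that changed sign were none of them called: Slc7a11 at 0.088 without knockout line 2 (-0.29 to 0.088 over the omitted lines), Srxn1 at -0.014 without probe sets marked _x_at, _s_at or _a_at, the Slc7a11 probe set 1443536_at at -0.23 without knockout line 4 and -0.014 without wild-type line 5 (-0.23 to 0.25), and the Srxn1 probe set 1425351_at at 0.075 without knockout line 4 and 0.00036 without wild-type line 6 (-0.078 to 0.075). No paired analysis was possible because no line number occurs in both genotypes.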

Other observations

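Of the 69 related genes, 24 lay higher in both knockout lines than in both wild-type lines and 24 lower, against 28.7% and 29.5% of all genes. The uncalled enzymes given here were chosen after their values were seen. Gss, which joins glycine to the product of glutamate-cysteine ligase and so completes glutathione, stood at 0.57 in knockout line 2 and 0.085 in knockout line 4, against -0.76 in wild-type line 5 and -0.085 in wild-type line 6 (0.75 ± 0.273 SE, limma adjusted p = 0.147). The glutathione transferase Gsta4, which conjugates products of lipid peroxidation, stood at 0.23 in knockout line 2 and 0.74 in knockout line 4, against -0.23 in wild-type line 5 and -0.97 in wild-type line 6 (1.08 ± 0.295, limma adjusted p = 0.0793), with knockout line 4 as the higher line. Taldo1, an enzyme of the pentose phosphate pathway, differed by 0.40 (limma adjusted p = 0.0901). Uncalled enzymes with both knockout lines below both wild-type lines included the glutaredoxin Glrx (-0.79, limma adjusted p = 0.198), the mitochondrial superoxide dismutase Sod2 (-0.63, 0.224), the glutathione transferase Gstm1 (-0.60, 0.158) and the oxoprolinase Oplah (-0.39, 0.125).

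Without overlap, 28.7% of all genes lay higher and 29.5% lower. Of the 13 other thioredoxin and peroxiredoxin genes, 5 lay higher without overlap and 4 lower (Txnrd3, Txnrd2, Nxn and Prdx4), near those shares. Among those higher were methionine sulfoxide reductases, which draw electrons from thioredoxin to repair oxidised methionine: Msrb1 (0.46, limma adjusted p = 0.0802), Msrb3 (0.49, limma adjusted p = 0.0939) and Msra (0.38, limma adjusted p = 0.101), while Msrb2 overlapped between genotypes (0.083, limma adjusted p = 0.774).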
